A study of Homo sapiens with 12 samples.

Results

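The 59 genes described here encode the machinery of DNA replication and cell division, and they were taken from a list written by hand among the 62696 genes of the count tables. For the description they were divided into 21 G1/S replication genes, 8 G1/S cyclins, kinases and CDC25A, 25 G2/M and mitotic genes, and 5 inhibitors. All 59 had enough counts to be tested in both cell lines, so no gene of the list was lost to the filter on low counts.

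The counts came from poly-A RNA-seq of SKBR3 and MDA-MB-453, established human breast cancer cell lines that the study uses as HER2 lines. Every line gave 3 biological replicates without and 3 with TWEAK, so that 12 libraries fall into 4 groups. TWEAK is a cytokine of the TNF superfamily that binds the receptor Fn14. Treated cells of both lines spent 8 h in Opti-MEM and then received 10 ng/ml TWEAK for 48 h, with fresh TWEAK at 24 h. The labels of the untreated libraries carry the same protocol text and do not say what these cells received instead, and each line is a single source. The question addressed here is how the cell-cycle genes differ with TWEAK in each line, and between the lines without it.

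In a dividing cell, helicase loading licenses the origins of replication in G1, and E2F factors switch on the replication genes at the end of G1, when cyclin D and cyclin E kinases inactivate the RB protein. DNA is copied in S phase, and the mitotic genes follow in G2 under B-MYB and FOXM1. CDK inhibitors of the CIP/KIP and INK4 families hold the kinases back and so restrain entry into S phase.

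Library totals lay between 24773003 and 35208304 counts. ERBB2, which encodes HER2, lay between 7408 and 7907 CPM (counts scaled to library size, TMM-normalised) in SKBR3 and between 847 and 902 CPM in MDA-MB-453. EPCAM, KRT8, KRT18, KRT19 and GATA3 were present in every library, but the luminal marker CDH1 was near 0 in SKBR3, at 0.0404 to 0.290 CPM. The summed level of 4 leukocyte markers reached at most 0.373 CPM, that of 5 fibroblast markers lay between 17.5 and 123 CPM, nearly all of it COL1A1, and that of 3 endothelial markers reached at most 0.560 CPM in MDA-MB-453. In SKBR3 the endothelial sum was 3.89 to 5.10 CPM untreated and 6.43 to 7.72 CPM treated. Of its genes, CDH5 stood at 1.57 to 1.90 CPM untreated and 3.56 to 5.05 CPM treated, VWF at 2.28 to 3.20 CPM and 2.61 to 2.79 CPM, and PECAM1 reached at most 0.0809 CPM, and the part of this list in the results was not tested. In both cell lines the second TWEAK replicate was set off from the rest. Its counts differed from those of the other TWEAK replicates with a chi-square per degree of freedom of 21.1 and 23.8 in SKBR3 and of 10.2 and 5.31 in MDA-MB-453, against at most 5.74 and 2.85 between other replicates of a group. In SKBR3 untreated replicate 3 also differed from untreated replicates 1 and 2, at 5.74 and 4.27, against 1.78 between replicates 1 and 2. The numbers of genes that passed the test with TWEAK are also given without TWEAK replicate 2. Untreated replicate 3 was kept in those fits.

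The promoters were searched for short motifs, shown here because many replication and mitotic genes share them. RefSeq promoters (GRCh38.p14, from 250 bases before to 50 bases after the start) were matched for 47 of the 59 genes and searched on both strands. The letters TTTCCCGC, TTTGGCGC, TTTCGCGC or TTTGCCGC, which fit sites of E2F factors, were found in 13 of 18 replication promoters, in 2 of 19 mitotic ones, in 1 of 5 of the cyclin and kinase class and in 0 of 5 inhibitor promoters, against 3.33% of all 27305 promoters. TTTGAA or TTCGAA, the cell-cycle homology region of mitotic promoters, was found in 12 of 19 mitotic and 2 of 18 replication promoters, against 16.6% of all. In the cyclin and kinase class 0 of 5 promoters held it, and 1 of 5 inhibitor promoters. CCAAT, the box bound by NF-Y, was found in 13 of 18 replication and 15 of 19 mitotic promoters, against 35.7%. It was found in 1 of 5 promoters of the cyclin and kinase class and 2 of 5 inhibitor promoters. None of these motifs contains another, TTCGAA reads the same on both strands, and a match describes the sequence only. The promoters of CDC6 (replication, chr17:40287629-40287928, plus strand), CDC20 (mitosis, chr1:43358731-43359030, plus strand) and CDKN2B (inhibitor, chr9:22009256-22009555, minus strand) are printed because each is a gene of its class that passed the test in SKBR3. Each runs 5′ to 3′ along its gene, and capitals mark the motifs, which on the opposite strand read ATTGG or TTCAAA.
CDC6: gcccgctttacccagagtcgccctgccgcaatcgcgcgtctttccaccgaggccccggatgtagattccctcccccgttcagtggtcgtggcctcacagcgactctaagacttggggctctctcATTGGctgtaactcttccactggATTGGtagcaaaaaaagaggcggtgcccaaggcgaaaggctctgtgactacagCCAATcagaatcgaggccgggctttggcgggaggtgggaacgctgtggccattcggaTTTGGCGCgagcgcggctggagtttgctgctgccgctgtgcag
CDC20: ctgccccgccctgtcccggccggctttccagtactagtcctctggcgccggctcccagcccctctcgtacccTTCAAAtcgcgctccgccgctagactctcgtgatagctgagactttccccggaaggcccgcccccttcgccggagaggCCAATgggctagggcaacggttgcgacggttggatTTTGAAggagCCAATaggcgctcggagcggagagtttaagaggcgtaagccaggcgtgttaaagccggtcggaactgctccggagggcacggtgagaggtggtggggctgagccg
CDKN2B: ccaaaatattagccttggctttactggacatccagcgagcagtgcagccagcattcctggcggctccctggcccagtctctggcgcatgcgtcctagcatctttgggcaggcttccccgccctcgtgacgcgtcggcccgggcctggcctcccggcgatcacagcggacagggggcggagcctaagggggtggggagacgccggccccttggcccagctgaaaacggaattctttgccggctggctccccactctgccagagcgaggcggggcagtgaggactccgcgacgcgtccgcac
CDC6 holds CCAAT 3 times and TTTGGCGC once, from base 8 of the transcript. CDC20 holds TTTGAA and CCAAT 2 times each, in alternation and all before the start. In the CDKN2B window none of the searched letters was found, so its sequence is without capitals.

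With TWEAK in SKBR3, the inhibitors CDKN2B and CDKN1A rose, by 2.67-fold and 1.81-fold, and 5 replication genes fell by 0.21 to 0.30 on the log2 scale. Most replication genes and most mitotic genes did not pass the test, and a difference between these classes was not tested. In total 11 of the 59 genes passed the test, 4 higher and 7 lower. Of all 15661 genes tested in SKBR3, 6.6% were called higher and 3.82% lower at an adjusted p of at most 0.1 by edgeR's quasi-likelihood test, the rule used throughout. Against this background, 4 of 59 higher is close to the share of all genes. The 7 of 59 lower were above it with all libraries, but not under every alternative, as given below. By class, 0 of 21 replication genes were called higher and 5 lower, 1 and 1 of 8 cyclins and kinases, 1 and 1 of 25 mitotic genes, and 2 and 0 of 5 inhibitors. In such bulk samples, fewer cells in a phase of the cycle and less RNA per cell cannot be told apart.

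CDKN2B, an INK4 inhibitor of CDK4 and CDK6 (chr9:22002903-22009305, ENSG00000147883.12), had the largest difference of the list. Its level was 12.7, 12.3 and 13.3 CPM in the 3 untreated SKBR3 libraries and 37.0, 31.2 and 34.7 CPM with TWEAK. Every treated library stood more than 2-fold above every untreated one. The log2 fold change was 1.42 (SE 0.0836, adjusted p = 1.51e-06 by edgeR), and without TWEAK replicate 2 it was 1.48.

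CDKN1A, the CIP/KIP inhibitor p21 and a target of p53 (chr6:36676460-36687337, ENSG00000124762.14), stood at 13.9, 14.9 and 15.97 CPM without TWEAK and at 26.2, 30.2 and 24.8 CPM with it. The groups did not overlap, and TWEAK replicate 2 was the highest. Its log2 fold change was 0.85 (SE 0.0947, adjusted p = 0.000179 by edgeR), or 0.77 without that library. The other inhibitors did not pass the test. CDKN1B, which encodes p27, was at 64.1, 68.2 and 67.1 CPM untreated and 60.6, 55.9 and 59.7 CPM treated, with a log2 fold change of -0.18 (adjusted p = 0.126 by edgeR). CDKN2C, the INK4 inhibitor p18, was at 47.8, 47.2 and 49.9 CPM untreated and 42.6, 45.3 and 40.0 CPM treated, with -0.19 on the log2 scale (adjusted p = 0.168). In both of these genes the groups did not overlap, and all treated libraries were the lower ones. CDKN3, a phosphatase that acts on CDK2, had a log2 fold change of -0.13 (SE 0.0836) with overlapping groups. The class held values of both signs.

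**Figure D1:**
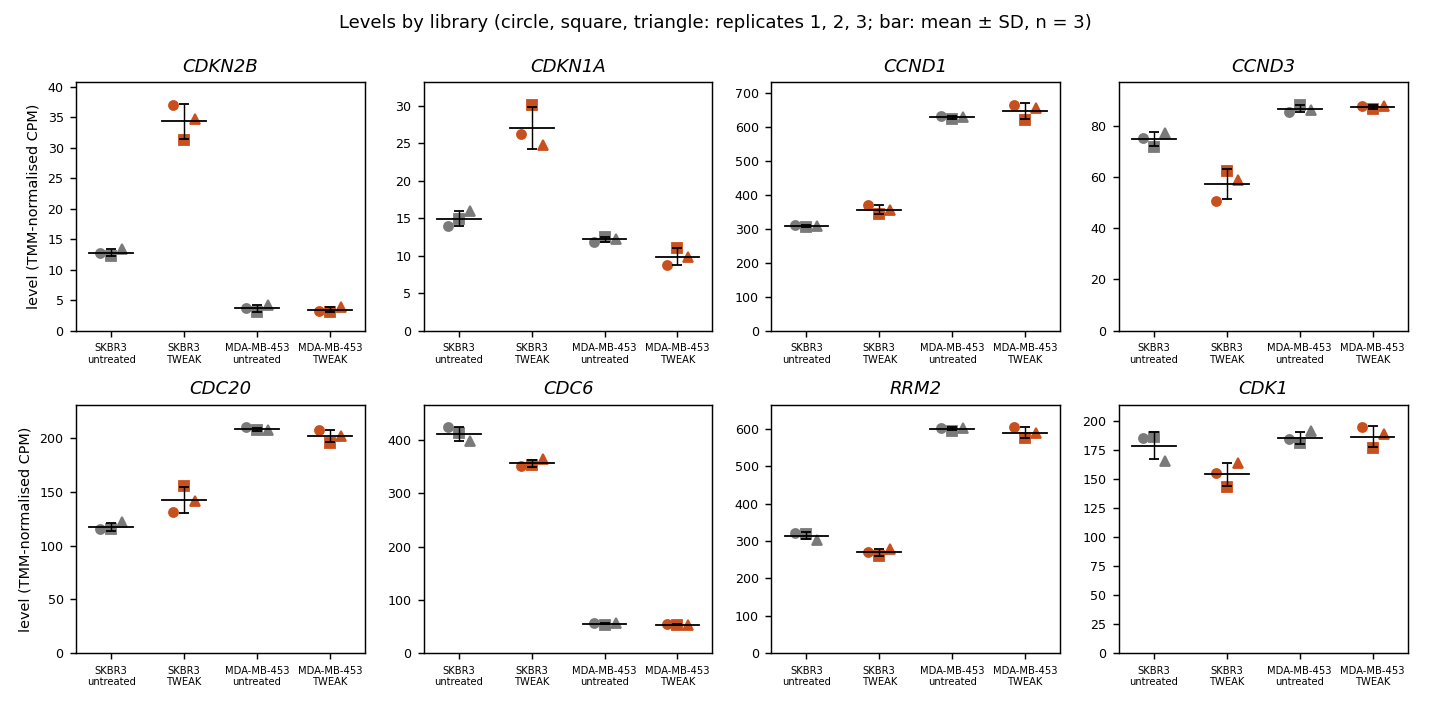
Levels (y axes, TMM-normalised CPM, from 0) of 8 genes in the 4 groups (x axes), with a symbol for each replicate and the mean ± SD of 3 libraries. In SKBR3 the TWEAK-treated libraries of CDKN2B lie at 31.2 to 37.0 CPM and the untreated ones at 12.3 to 13.3 CPM, while the MDA-MB-453 groups overlap.

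Among the D cyclins, which activate CDK4 and CDK6 in G1, CCND3 fell and CCND1 rose in SKBR3. CCND3 (chr6:41934934-42050357) stood at 75.2, 71.8 and 77.3 CPM in untreated libraries and at 50.7, 62.2 and 59.04 CPM in treated ones. All treated libraries were below all untreated ones, and TWEAK replicate 1 was the lowest. Its log2 fold change was -0.39 (SE 0.0821, adjusted p = 0.0135 by edgeR), or -0.45 without TWEAK replicate 2.

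CCND1 (chr11:69641156-69654474) stood at 312, 306 and 307 CPM untreated and 369, 344 and 354 CPM treated. The untreated libraries lay within 6 CPM of each other and all treated libraries were higher. The log2 fold change was 0.20 (SE 0.0544, adjusted p = 0.0502 by edgeR), or 0.23 without TWEAK replicate 2. The other members of the class did not pass. CCNE1, a cyclin that activates CDK2, was at 28.6, 29.2 and 29.4 CPM untreated and 31.9, 33.2 and 33.8 CPM treated, a log2 fold change of 0.18 (adjusted p = 0.154) with groups that did not overlap. CCNE2, the other cyclin E, was low, at 6.77 to 8.86 CPM untreated and 6.22 to 6.85 CPM treated, with -0.30 on the log2 scale and overlapping groups. The kinases CDK2, CDK4 and CDK6 had log2 fold changes of -0.01, 0.03 and -0.03, with 95% intervals of -0.15 to 0.12, -0.12 to 0.19 and -0.29 to 0.22. The CDK6 libraries with TWEAK were spread widely, at 55.2, 39.9 and 57.4 CPM, and replicate 2 was the lowest. The phosphatase CDC25A, which activates CDK2, had a log2 fold change of -0.18 (adjusted p = 0.211).

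The values of the replication genes in SKBR3 were small and mostly of one sign. Of the 21, 19 had a negative log2 fold change, and their median was -0.13, beside -0.0074 over all genes tested. In 13 of the 21 all treated libraries lay below all untreated ones, and in 0 of 21 above, where 12.2% and 14.4% of all genes tested did so. The mean log2(CPM + 1) of the class, relative to its mean in the untreated libraries, was 0.01, -0.00 and -0.01 in untreated replicates 1, 2 and 3 and -0.17, -0.11 and -0.10 with TWEAK. No treated library reached the level of an untreated one, and TWEAK replicate 1 was the lowest. Without TWEAK replicate 1 no replication gene was called, as given below.

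CDC6, which loads the replicative helicase onto origins (chr17:40287879-40304657), stood at 425, 414 and 399 CPM untreated and 352, 354 and 365 CPM treated, without overlap. Its log2 fold change was -0.21 (SE 0.0548, adjusted p = 0.0380 by edgeR). RRM2, the regulated subunit of ribonucleotide reductase (chr2:10120698-10211725), stood at 321, 319 and 303 CPM untreated and 271, 259 and 278 CPM treated, also without overlap, with a log2 fold change of -0.23 (SE 0.0565, adjusted p = 0.0321). Their falls were close in size and the replicates lay close together.

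MCM10 joins the helicase as replication starts. Its levels were 43.8, 44.5 and 41.3 CPM untreated and 35.9, 31.4 and 38.9 CPM treated, with a log2 fold change of -0.30 (SE 0.0832, adjusted p = 0.0597 by edgeR). CDC45, a subunit of the active helicase, had 40.6, 40.6 and 38.5 CPM and 30.5, 36.6 and 33.8 CPM, a log2 fold change of -0.25 (SE 0.0797, adjusted p = 0.0935). E2F2, an activating E2F factor, had 33.6, 34.6 and 29.8 CPM and 28.0, 26.1 and 28.7 CPM, with -0.25 (SE 0.0785, adjusted p = 0.0951). In these genes too the treated libraries were all lower, with a gap to the untreated ones that was smallest in E2F2.

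The remaining 16 replication genes did not pass the test. PCNA, the sliding clamp of the DNA polymerases, was at 245, 248 and 252 CPM untreated and 226, 244 and 229.8 CPM treated, a log2 fold change of -0.09 (95% interval -0.22 to 0.03). MCM2, a helicase subunit, was at 92.5, 92.4 and 92.2 CPM and 84.3, 85.9 and 91.1 CPM, with -0.09 (-0.22 to 0.04). E2F1, an activating E2F factor, was at 44.9, 44.9 and 45.9 CPM and 37.5, 42.4 and 39.0 CPM, with -0.20 (-0.35 to -0.04, adjusted p = 0.140 by edgeR). In each of these every treated library was below every untreated one. The other helicase subunit genes MCM3, MCM4, MCM5 and MCM6 had log2 fold changes of -0.09, -0.02, -0.01 and -0.17. GINS1 and GINS2, which join the helicase in the GINS complex, had -0.01 and -0.27 (95% intervals -0.15 to 0.12 and -0.49 to -0.06). RRM1, the large subunit of ribonucleotide reductase, had -0.14, and TYMS, the thymidylate synthase, -0.02. The polymerase alpha gene POLA1, the licensing inhibitor gene GMNN and the repressor gene E2F8 had -0.05, -0.13 and -0.29. The values ran from near 0 to about that of the called genes. The only positive values of the class were those of MCM7 (0.01) and of the licensing factor CDT1 (0.01), with 95% intervals of -0.14 to 0.16 and -0.19 to 0.21.

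Of the G2/M and mitotic genes in SKBR3, 1 rose and 1 fell. Their median log2 fold change was -0.044, 17 of 25 were negative, all treated libraries lay below all untreated ones in 5 of 25 and above them in 1 of 25 (12.2% and 14.4% of all genes tested), and the class mean of the treated libraries overlapped that of the untreated ones. CDC20 rose and CDK1 fell. CDC20, the activator of the anaphase-promoting complex (chr1:43358981-43363203), stood at 116, 116 and 122 CPM untreated and 131, 155 and 141 CPM treated. All treated libraries were higher, replicate 2 most. The log2 fold change was 0.27 (SE 0.0727, adjusted p = 0.0484 by edgeR), or 0.20 without TWEAK replicate 2.

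CDK1, the kinase that drives entry into mitosis (chr10:60778331-60794852), stood at 185, 186 and 165 CPM untreated and 155, 143 and 163 CPM treated. The highest treated library was 2 CPM under the lowest untreated one. Its log2 fold change was -0.22 (SE 0.0703, adjusted p = 0.0961 by edgeR). Its partner cyclin gene CCNB1 was at 150.0, 147 and 145 CPM and 132, 146 and 142 CPM, with -0.07 on the log2 scale (95% interval -0.21 to 0.06). MKI67, the gene of the proliferation marker Ki-67, was at 458, 439.7 and 414 CPM untreated and 405, 316 and 432 CPM treated. Its groups overlapped, TWEAK replicate 2 was far below the others, and the log2 fold change of -0.19 (adjusted p = 0.315 by edgeR) shrank to -0.07 without that library. FOXM1, a transcription factor of the mitotic genes, was at 175, 174 and 177 CPM and 158, 164 and 165 CPM, with -0.12 (adjusted p = 0.265) and no overlap. TOP2A, the topoisomerase that untangles chromosomes, was at 905 to 1026 CPM and 893 to 1019 CPM, with -0.02 (95% interval -0.18 to 0.13). AURKA, AURKB, PLK1, BUB1 and TTK, kinases of the spindle and its checkpoint, had log2 fold changes between -0.12 and -0.00 and did not pass.

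The remaining mitotic genes did not pass either. The cyclin genes CCNA2 and CCNB2 had log2 fold changes of -0.21 (95% interval -0.37 to -0.06) and 0.00 (-0.14 to 0.14). The spindle checkpoint gene BUB1B had -0.20, and the motor gene KIF11, which separates the spindle poles, -0.21. The other kinesin genes, KIF18A and KIF20A, had 0.04 and -0.02. MYBL2, CDC25C, UBE2C, TPX2 and BIRC5 (B-MYB, a phosphatase of CDK1, a ubiquitin-conjugating partner of the anaphase-promoting complex, a spindle assembly factor and survivin) had -0.01, 0.02, 0.02, -0.09 and -0.08. The highest values after CENPE (0.30) and CDC20 were those of CENPA, the centromeric histone (0.13, 95% interval -0.04 to 0.30), KIF18A and CENPF (0.03, -0.21 to 0.28). The class thus held small values of both signs.

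**Figure D2:**
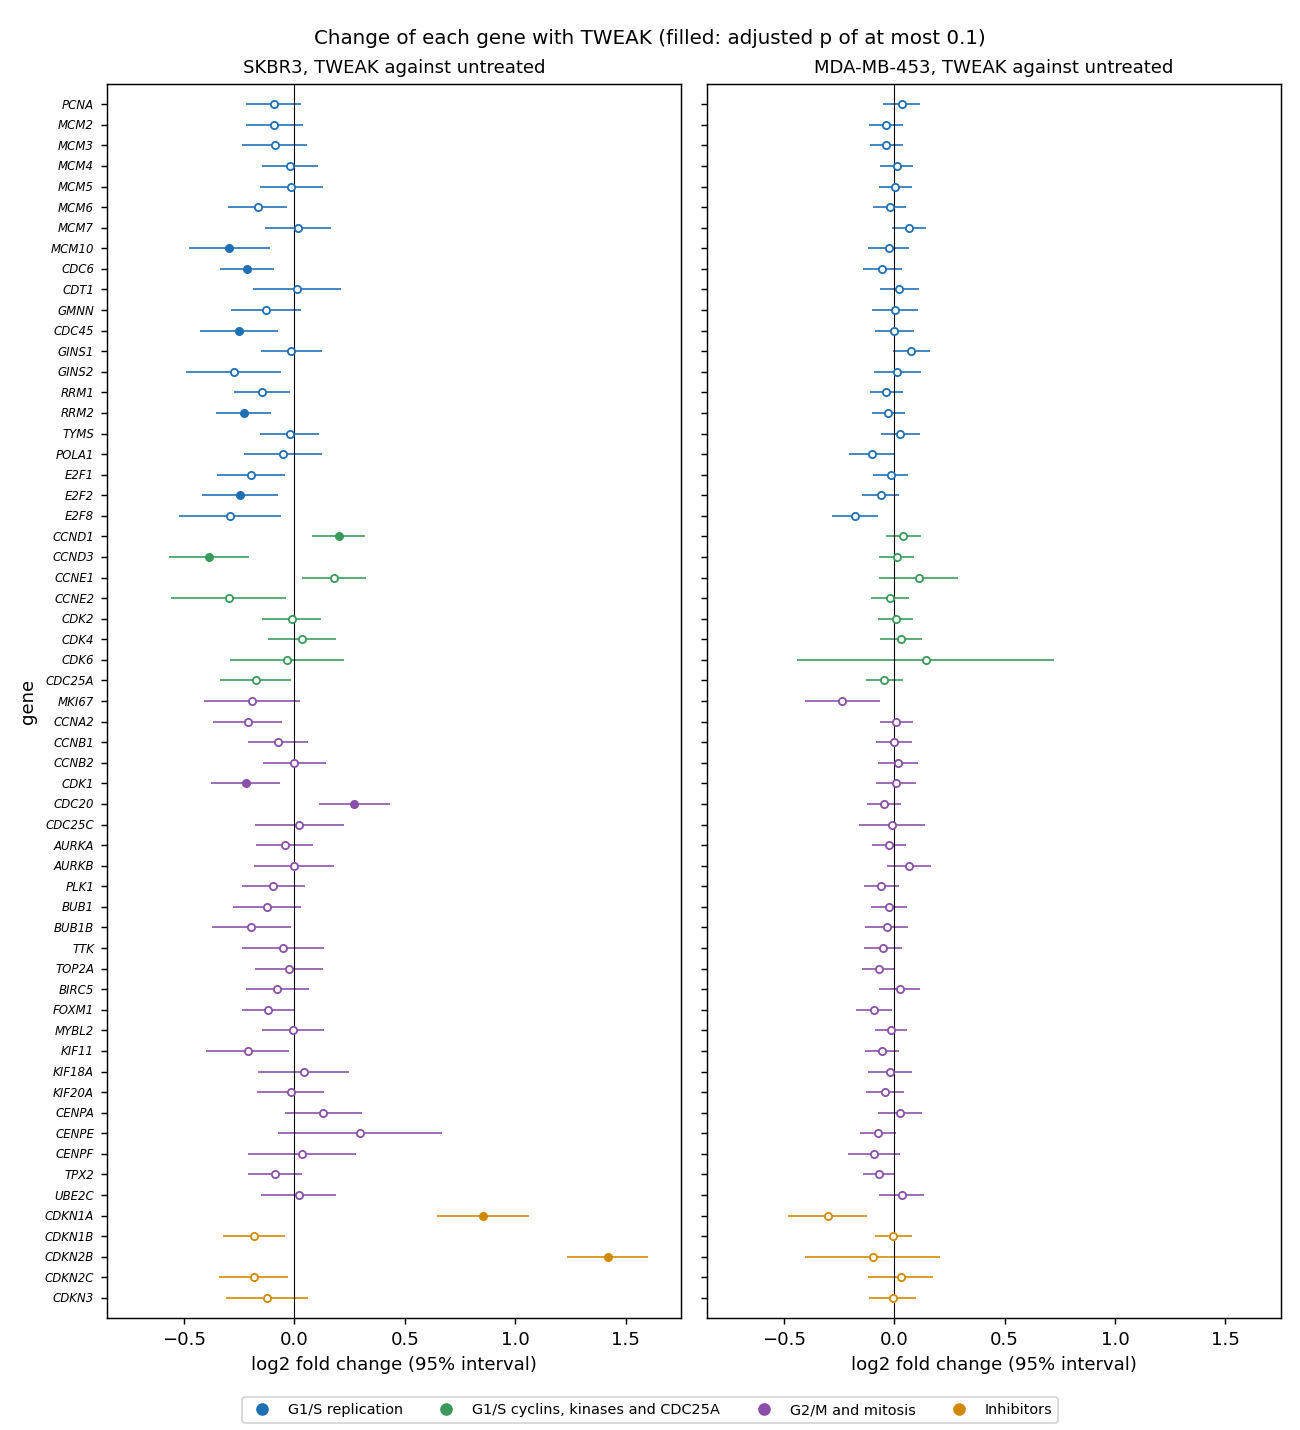
Log2 fold change with TWEAK and its 95% interval (x axes) for each of the 59 genes (y axis, coloured by class) in SKBR3, left, and MDA-MB-453, right, where filled points have an adjusted p of at most 0.1. CDKN2B and CDKN1A stand alone on the right in SKBR3 at 1.42 and 0.85, and no point is filled in MDA-MB-453.

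How many of these genes passed in SKBR3 depended on the libraries and on the fit. With a correction for GC content and length of genes 15 were lower, and 18 with all 12 libraries in 1 fit, while lower calls over all genes tested went from 599 to 1133 and 1068. With the replicate number as a block 1 was lower, and lower calls over all genes tested went from 599 to 387. With TWEAK replicate 2 left out, 5 of the 59 passed as higher and 20 as lower, where 9.93% and 7.45% of all genes tested were called, and all 11 genes named above kept their call and direction. The replication genes then counted 12 lower of 21, the mitotic genes 1 higher and 4 lower of 25, and the inhibitors 2 higher and 3 lower of 5. The 8 added genes with the smallest p were GINS2 (-0.38 on the log2 scale), E2F1 (-0.25), CDKN2C (-0.23), MCM6 (-0.17), RRM1 (-0.15), CDKN3 (-0.20), GMNN (-0.18) and PCNA (-0.13). Without untreated replicate 1, without untreated replicate 2 or without TWEAK replicate 1, CCND3 was the only gene still called lower, and CDKN2B and CDKN1A stayed higher in each. Over all genes tested, 284 of 16000, 240 of 16082 and 424 of 16019 were then called lower. The 1 of 59 was thus not clearly above the background in these 3 fits. MCM10 and CDC45 also lost their call without untreated replicate 3, CDC45 and E2F2 without TWEAK replicate 3, and CDC45 and E2F2 in DESeq2. CDC20 lost its call without untreated replicate 1 or 2, and CCND1 lost it without any library other than TWEAK replicate 2. The signs of all 11 were the same under every alternative run.

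In MDA-MB-453 no gene of the list passed the test. The count was 0 of 59 in edgeR in each direction and also 0 in DESeq2, where edgeR called 1.29% of all 14929 genes tested higher and 0.208% lower. The result depended on the setting, since 3 of the 59 were called lower without the filter on low counts and 2 with the correction for GC and length, while lower calls over all genes tested went from 31 to 178 and 75. With the replicate number as a block 4 were lower, against 404 over all genes tested. The block and that correction together gave 1 higher and 6 lower, against 539 and 431. There were 4 of 59 with an unadjusted p under 0.05 (E2F8, CDKN1A, MKI67 and FOXM1, all of negative sign), against 10.5% of all genes tested. The estimates were narrow, with a median SE of 0.0399 on the log2 scale against 0.0703 in SKBR3, and in 53 of the 59 genes the 95% interval lay within a 1.2-fold change in either direction. In SKBR3 this held for 27 of the 59.

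CDKN1A in MDA-MB-453 stood at 11.8, 12.4 and 12.3 CPM untreated and 8.81, 11.1 and 9.77 CPM treated. The treated libraries were all lower, opposite to SKBR3, and replicate 1 was the lowest. The log2 fold change was -0.30 (SE 0.0832, adjusted p = 0.152 by edgeR). CDKN2B was low, at 3.72, 3.10 and 4.26 CPM and 3.23, 3.10 and 3.90 CPM, with overlapping groups and a log2 fold change of -0.10 (95% interval -0.40 to 0.21). E2F8, a repressor among the E2F factors that is given for its smallest p, had 51.0, 52.0 and 52.0 CPM untreated and 43.1, 48.4 and 45.4 CPM treated, a log2 fold change of -0.18 (SE 0.0483, adjusted p = 0.138). MKI67 was at 731, 774 and 759 CPM untreated and 543, 740.4 and 640.3 CPM treated. TWEAK replicate 2 lay among the untreated libraries, and the other treated libraries lay below them, for a log2 fold change of -0.23 (adjusted p = 0.284 by edgeR). FOXM1 had 306, 312 and 301 CPM and 279, 299 and 285 CPM, without overlap, and -0.09 on the log2 scale (adjusted p = 0.414).

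The replication genes of MDA-MB-453 had a median log2 fold change of -0.017, with 10 of 21 positive, beside 0.0016 over all genes tested. CDC6 was at 55.5, 53.5 and 55.8 CPM and 54.0, 52.2 and 52.8 CPM, a log2 fold change of -0.05 (95% interval -0.14 to 0.04). RRM2 was at 603, 595 and 603 CPM and 604, 575 and 589 CPM, with -0.03 (-0.10 to 0.05). The D cyclin genes CCND1 and CCND3 had 0.04 (-0.04 to 0.12) and 0.01 (-0.07 to 0.09). PCNA, MCM2 and E2F1 had 0.03, -0.04 and -0.02, and the whole class ran from -0.18 to 0.08 (GINS1). CCNE1 was at 11.2, 9.30 and 11.5 CPM and 11.3, 11.6 and 11.6 CPM, with 0.11 (-0.07 to 0.29). Of the mitotic genes 18 of 25 were negative, with a median of -0.025. CDC20 was at 210.3, 207 and 207 CPM and 207, 196 and 203 CPM, with -0.05 (-0.12 to 0.03), and CDK1, CCNB1 and TOP2A had 0.01, -0.00 and -0.07. The inhibitor genes CDKN1B, CDKN2C and CDKN3 had -0.00, 0.03 and -0.01. Over the list, all treated libraries lay below all untreated ones in 10 of 59 genes and above in 2 of 59, where 6.88% and 8.19% of all genes tested did so. By this measure the list leaned to lower values more than all genes did, which was not tested. When TWEAK replicate 2 was left out, edgeR called 0 of the 59 higher and 6 lower, against 6.59% and 7.22% of all genes tested. These 6 were MKI67 (-0.35 on the log2 scale), E2F8 (-0.22), CDKN1A (-0.38), CENPF (-0.15), FOXM1 (-0.12) and POLA1 (-0.13). In this fit the lower share of the list was not far above that of all genes, and the higher share was below that of all genes.

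The change with TWEAK was compared between the lines as the interaction of line and treatment, MDA-MB-453 minus SKBR3. It differed for 4 of the 59 genes, 1 higher and 3 lower, where 1.01% and 2.36% of all 17201 genes tested were called. The difference was -1.52 for CDKN2B (SE 0.164, adjusted p = 2.95e-05 by edgeR) and -1.16 for CDKN1A (SE 0.129, adjusted p = 4.13e-05). It was 0.39 for CCND3 (SE 0.0893, adjusted p = 0.0218) and -0.32 for CDC20 (SE 0.0795, adjusted p = 0.0416). All 4 were called in SKBR3. The 7 other genes called there had differences of 0.16 (CDC6), 0.20 (RRM2), 0.27 (MCM10), 0.25 (CDC45), 0.18 (E2F2), 0.22 (CDK1) and -0.16 (CCND1) that did not pass with all libraries.

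The call for CDC20 was lost without untreated replicate 1 or 2 of SKBR3, untreated replicate 1 of MDA-MB-453 or TWEAK replicate 3 of MDA-MB-453, with log2 differences of -0.38 to -0.22 over all alternatives. Of the replication genes 20 of 21 had a positive difference, with a median of 0.11, and none was called. When both TWEAK replicates numbered 2 were left out, 14 of the 59 were higher and 7 lower, against 5.5% and 6.36% of all genes tested, and 8 of the 21 replication genes were among the higher ones. Of the 7 genes called in SKBR3 but not in the interaction, CDC6 (0.17, adjusted p = 0.0817 by edgeR), RRM2 (0.20, 0.0156), CDC45 (0.36, 0.000988) and CDK1 (0.22, 0.0216) were then higher and CCND1 (-0.15, 0.0817) lower, while MCM10 and E2F2 were not called.

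Between the untreated lines the list differed far more than with TWEAK. At the adjusted p alone, 9 of the 59 genes were higher in SKBR3 and 47 lower, where 43.5% and 40.7% of all genes tested were called. With a log2 fold change of at least 1 in size as a second condition, 6 were higher and 19 lower, against 24.5% and 19.1% of all genes. The share of lower genes is thus above the background under both conditions and that of higher genes below it. By class, 2 of 21 replication genes were higher and 18 lower, 2 and 6 of 8 cyclins and kinases, 2 and 21 of 25 mitotic genes, and 3 and 2 of 5 inhibitors. The median of the 59 was -0.79, beside 0.034 over all genes tested. The genes not called were CDK1, BIRC5 and POLA1, at -0.05, 0.01 and 0.05. The share of all counts that fell on the 59 genes was 0.710% to 0.750% in untreated SKBR3 and 1.12% to 1.14% in untreated MDA-MB-453. Each line is a single source, so line and anything done separately to the lines cannot be told apart.

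CDK6, the kinase partner of the D cyclins, had the largest difference, with 51.2, 54.7 and 49.4 CPM in SKBR3 and 1.15, 0.839 and 0.881 CPM in MDA-MB-453. The level in MDA-MB-453 rested on 23 to 31 counts per library, and the lines differed 53.9-fold (log2 fold change 5.75, SE 0.182, adjusted p = 5.02e-15 by edgeR). CDK4, the other D cyclin kinase, was lower in SKBR3, at 106, 100.4 and 112 CPM against 164, 158 and 164 CPM. CDC6 had 425, 414 and 399 CPM in SKBR3 and 55.5, 53.5 and 55.8 CPM in MDA-MB-453, 7.51-fold (log2 fold change 2.91, SE 0.0477). TOP2A had 1012, 1026 and 905 CPM against 293, 295 and 294 CPM, 3.33-fold (1.74, SE 0.0577). CDC6 and TOP2A were higher in SKBR3 where most of their classes were lower, as were TYMS (0.47) and AURKA (0.61). ERBB2, whose own log2 difference was 3.09, lies on chromosome 17 too. CDC6 starts 557 kb and TOP2A 658 kb beyond the end of ERBB2 (chr17:39687914-39730426). BIRC5, 38484 kb away on the same chromosome, was at 0.01, and AURKB, on the other arm of the chromosome, at -0.23 (SE 0.0657). A part of the position in these differences was not tested.

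CDKN2B had 12.7, 12.3 and 13.3 CPM in SKBR3 against 3.72, 3.10 and 4.26 CPM in MDA-MB-453. CDKN2B, CCNE1 and CDKN2C were all higher in SKBR3, with log2 fold changes of 1.79, 1.44 and 1.32. CCNE1 had 28.6, 29.2 and 29.4 CPM against 11.2, 9.30 and 11.5 CPM, and CDKN2C had 47.8, 47.2 and 49.9 CPM against 20.8, 19.3 and 18.0 CPM. The cyclin E genes were opposed, since CCNE2 had 8.23, 8.86 and 6.77 CPM in SKBR3 and 63.5, 65.1 and 66.3 CPM in MDA-MB-453, a log2 fold change of -3.03 (SE 0.0762) and the lowest of the list. E2F1 followed at -1.75, with 44.9, 44.9 and 45.9 CPM against 156, 151 and 149 CPM. KIF18A, a kinesin of the mitotic spindle, was at -1.72 with 22.1, 20.8 and 17.9 CPM against 66.3, 71.04 and 63.7 CPM. The helicase subunit genes MCM2 and MCM5 were at -1.66 and -1.64, with 92.2 to 92.5 and 73.1 to 78.1 CPM in SKBR3 against 289.7 to 294 and 231 to 237 CPM. Of the other subunits of the same hexamer, MCM3 and MCM6 were at -1.57 and -1.53, and MCM4 and MCM7 at -0.22 and -0.30, so the subunit genes ranged widely. The inhibitor CDKN1B was lower in SKBR3, at 64.1, 68.2 and 67.1 CPM against 148, 146 and 147 CPM (-1.15, SE 0.0506).

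**Figure D3:**
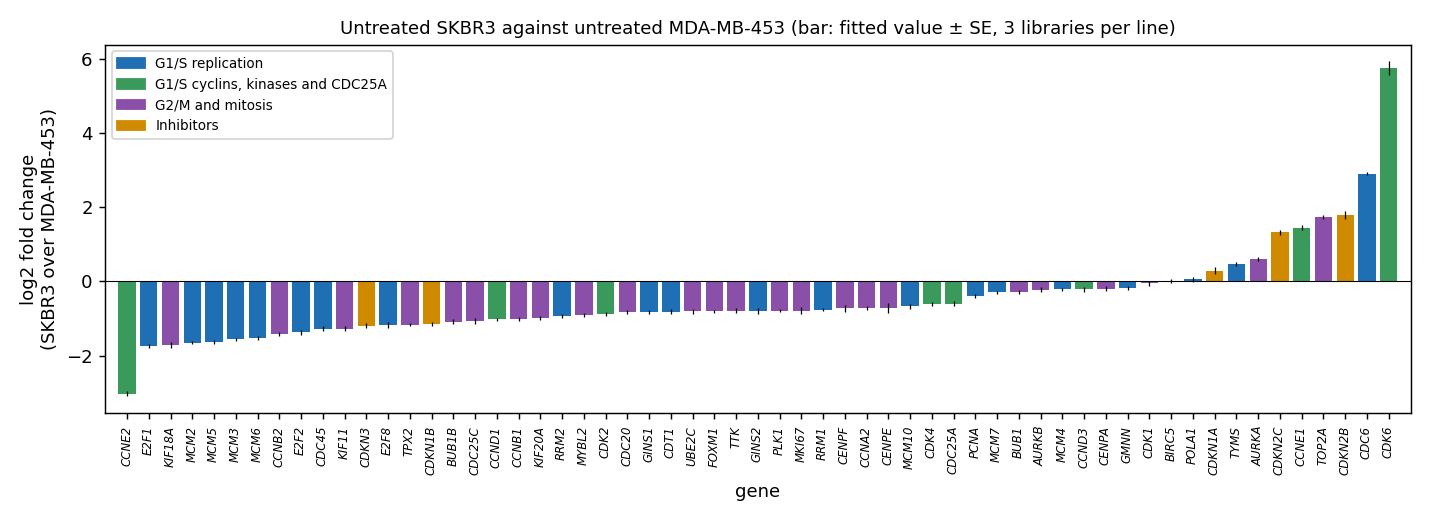
Log2 fold change of untreated SKBR3 over untreated MDA-MB-453 (y axis, fitted value ± SE from 3 libraries per line) for each of the 59 genes (x axis, in order of the value, coloured by class). Most bars lie below 0, CDK6 and CDC6 stand highest at 5.75 and 2.91, and CCNE2 lowest at -3.03.

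Per length of exon, PCNA was the highest of the list in both untreated lines, at 177 RPKM (CPM per kilobase of exon) in SKBR3 and 232 RPKM in MDA-MB-453. TOP2A and MYBL2, the gene of B-MYB, followed in SKBR3 at 154 and 118 RPKM, and MYBL2 and CCND1 in MDA-MB-453 at 221 and 132 RPKM. The lowest were CCNE2 in SKBR3 at 1.81 RPKM and CDK6 in MDA-MB-453 at 0.0782 RPKM. CDKN2B, for all its change, stayed among the low genes, at 3.20 RPKM in untreated and 8.58 RPKM in treated SKBR3. The strand setting of the counting is not stated, and exons of other genes on the opposite strand overlap 47.9% of the exonic bases of TYMS, 44.2% of CDK4, 37.1% of CCNE2, 23.6% of MCM2, 20.4% of CDKN2C, 16.8% of CDK2, 15.9% of FOXM1, 12.8% of PLK1 and 10.4% of CCND1. Exons on the same strand overlap 10.2% of BUB1B and 7.08% of CENPA. The levels of these genes could hold reads of their neighbours, and CDKN2B has no such overlap.

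A second list of 101 further cell-cycle genes was read in the same way. Of the 99 tested with TWEAK in SKBR3, 3 were called higher and 5 lower, where 6.6% and 3.82% of all genes tested were called. The share of higher genes was thus below the background and that of lower genes not far above it. Of the 5 lower genes 4 were among the 34 replication genes of this list. Of these 99, 85 had a negative log2 fold change, and the median was -0.11. The 34 further replication genes counted 0 higher and 4 lower, with a median of -0.13, and the 41 mitotic genes 0 higher and 1 lower, with a median of -0.11. Of the mitotic genes of this second list 39 of 41 were negative, so its mitotic and replication genes had close medians, unlike those of the 59 genes. The smallest p values belonged to E2F5, a pocket-protein-bound E2F factor (0.89, adjusted p = 0.000534 by edgeR), CDKN2A, the neighbour of CDKN2B in the INK4 locus (0.44, adjusted p = 0.00737), ORC6, an origin recognition subunit (-0.31, adjusted p = 0.0156), and DTL, which targets CDT1 for destruction (-0.33, adjusted p = 0.0270). Without TWEAK replicate 2 the 99 genes counted 3 higher and 24 lower, against 9.93% and 7.45% of all genes tested. In MDA-MB-453 0 of 100 passed in edgeR, against 1.29% higher and 0.208% lower among all genes tested, and 8 had an unadjusted p under 0.05, against 10.5%. With TWEAK replicate 2 left out, 5 of the 100 were higher and 10 lower there, against 6.59% and 7.22%. In the interaction, where 1.01% of all genes tested were higher and 2.36% lower, 2 of the 100 were higher, RFC3 (0.32, adjusted p = 0.0604) and ORC6 (0.28, adjusted p = 0.0627), and 2 lower, E2F5 (-0.88, adjusted p = 0.000446) and CDKN2A (-0.37, adjusted p = 0.0863). Without both TWEAK replicates numbered 2 the counts were 22 higher and 2 lower, against 5.5% and 6.36%. Between the untreated lines 17 of 100 were higher in SKBR3 and 72 lower, against 43.5% and 40.7% of all genes tested, with UHRF1 (-2.14) and FBXW7 (-2.58) among the lower ones.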

How the data were processed

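RNA was isolated with TRIzol, DNase-treated and poly-A selected, and sequenced on HiSeqX. For the library kit the labels name a DNA kit and the paper's methods a directional RNA kit. Per the labels and the methods, the authors trimmed reads with Trimmomatic, mapped them to hg38 with STAR and deposited raw counts per gene from featureCounts, without normalisation. Their tool versions, strand setting and annotation release are not given in the sources used here. Symbols, positions and overlaps were taken from GENCODE 44 (62625 of 62696 identifiers matched).

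TWEAK and untreated libraries were compared within a line, 6 libraries at a time, in edgeR 4.0.16 (R 4.3.3) with filterByExpr, TMM, the two-sided quasi-likelihood test and Benjamini-Hochberg adjustment over all genes tested, at 0.1. The interaction and the contrast of untreated lines came from all 12 libraries. CPM use TMM factors over 12 libraries, fitted values a prior count of 0.125. The smallest p of an exact permutation test of 3 against 3 libraries is 0.1, so none was used. The replicates are called biological, and the paper's methods say that work with cell lines was repeated independently on separate days, without tying a replicate number to a day.

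The listed genes, classes, further genes and motifs were chosen with earlier results of these data known. Per-library values were given for genes called (up to 12 per comparison), for 17 genes picked by role, and for the 5 largest and 5 smallest differences between lines. Further genes were named up to 4 per comparison. Alternatives were DESeq2 size factors, DESeq2 1.42.0, no filter, at least 10 counts in every library, blocking on the replicate number, a stricter threshold of 0.05, a loess correction for GC content and gene length, 1 fit of all 12 libraries, the 6 untreated libraries alone, and each library left out. Leaving out both TWEAK replicates numbered 2 was added after seeing the data. The scripts were tested on simulated data. Totals were 24773003 to 35208304 counts per library. Duplicate reads were not removed here, so precision covers counting error and replicate spread only.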

Additional observations from a re-analysis of the deposited data

Results flagged for a closer look

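The change with TWEAK differed between MDA-MB-453 and SKBR3 for 4 of the 59 genes by edgeR's interaction test, given as MDA-MB-453 minus SKBR3 on the log2 scale, 1 higher and 3 lower, where 1.01% and 2.36% of all genes tested were called. It was -1.52 for CDKN2B and -1.16 for CDKN1A, inhibitors of G1 kinases. CDKN2B was higher in 3 of 3 treated libraries of SKBR3 than in every untreated one, and CDKN1A was higher in 3 of 3 in SKBR3 and lower in 3 of 3 in MDA-MB-453. The change of CDKN1A in MDA-MB-453, -0.30 on the log2 scale, did not pass the test (adjusted p = 0.152 by edgeR). Of all genes tested, 14.4% had all treated libraries above all untreated ones in SKBR3, and 6.88% had them below in MDA-MB-453. The difference was 0.39 for the D cyclin gene CCND3 and -0.32 for the mitotic activator CDC20. Groups of 3 libraries were too small to be searched for single outlying values.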

How the results depend on the processing

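Calls for CDKN2B, CDKN1A and CCND3 in SKBR3 and in the interaction held under every alternative run, and no named gene that was called changed sign. In SKBR3 the adjusted p ranged from 6.48e-46 to 5.72e-05 for CDKN2B, 2.30e-16 to 0.00231 for CDKN1A, 3.50e-06 to 0.0764 for CCND3, 0.00327 to 0.221 for CDC20 and 0.00143 to 0.219 for CDC6. Against 4 higher and 7 lower in SKBR3, the lower count was 11 without the filter, 3 at an adjusted p of 0.05, 15 after correcting for GC and length, and 18 with all 12 libraries in one fit. Lower calls over all genes tested moved too, from 599 to 863, 363, 1133 and 1068 in that order. Leaving out 1 library gave 2 to 5 higher and 1 to 20 lower. Against 0 in MDA-MB-453, the lower count was 3 without the filter and 2 with the GC and length correction (31 over all genes as reported, 178 and 75 under these), and 0 to 6 with 1 library left out. Against 1 higher and 3 lower in the interaction, the higher count was 2 in DESeq2 and 6 with the GC and length correction (173 over all genes as reported, 239 and 414 under these), and leaving out 1 library gave 1 to 6 higher and 2 to 4 lower. Leaving out both TWEAK replicates numbered 2, added after seeing the data, gave 14 and 7 (964 and 1113 over all genes, against 173 and 406). Over all genes tested, calls numbered 1034 higher and 599 lower in SKBR3, and 686 to 1589 and 240 to 1191 with 1 library left out. In MDA-MB-453 they numbered 192 and 31, and 120 to 1003 and 10 to 1098. The highest counts of both lines came without TWEAK replicate 2. The cause of these shifts was not tested. No scaling moved the median of all genes by over 0.1 on the log2 scale. The counts between untreated lines stayed within 1.5 times of those reported under every alternative. The genes with the fewest counts were the least precise with TWEAK in MDA-MB-453, where CDK6 (23 to 41 counts) had an SE of 0.271 and CDKN2B an SE of 0.142, against a median of 0.0399 over the 59 genes.

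Nothing in the sources ties a replicate number to a shared day or batch, and the libraries were not treated as pairs, since the same-number correlation did not pass 0.1 in every pair of either line. Deviations from the group means of libraries with the same number correlated across genes at 0.414, -0.319 and -0.477 (SKBR3) and 0.294, 0.312 and 0.0273 (MDA-MB-453). In MDA-MB-453, unlike SKBR3, all were positive and each untreated library correlated best with its own number. For untreated replicate 3 this rested on 0.0273 against 0.0220 with TWEAK replicate 2, and TWEAK replicate 3 correlated better with untreated replicate 1, at 0.0571. Deviations within a group sum to 0, so these values are not independent and cannot decide on pairing. The largest correlation of all was 0.600, between untreated replicate 3 and TWEAK replicate 2 of SKBR3. With the replicate number as a block, 3 were higher and 1 lower in SKBR3, against 0 and 4 in MDA-MB-453 and 1 and 3 in the interaction. Over all genes tested the block moved the calls in MDA-MB-453 from 192 and 31 to 490 and 404, and in SKBR3 from 1034 and 599 to 824 and 387. With the block and the GC and length correction together the counts were 5 and 11 for SKBR3, 1 and 6 for MDA-MB-453, and 5 and 4 for the interaction, and those over all genes 1272 and 858, 539 and 431, and 366 and 526.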

Other observations

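In untreated SKBR3 the kinetochore genes CENPE and CENPF, chosen after their values were seen, had the highest coefficients of variation of the 59 genes. CENPE, a kinesin-like motor of the kinetochore, was at 85.2, 76.8 and 48.1 CPM in untreated replicates 1, 2 and 3, with the low value in replicate 3 and a coefficient of variation of 27.7% against a median of 3.70% over the 59 genes. With TWEAK it was at 95.2, 86.5 and 78.0 CPM, and the log2 fold change was 0.30 (95% interval -0.07 to 0.67). CENPF, another large kinetochore protein, had 331, 319 and 247 CPM untreated and 332, 266 and 323 CPM with TWEAK, and untreated replicate 3 and TWEAK replicate 2 were the low libraries. In MDA-MB-453 CENPE was even, at 113 to 117 CPM untreated and 105 to 111 CPM treated.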
